A study of Homo sapiens with 8 samples.

Results

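The genes described here are 10 repressors and output factors of the circadian clock: PER1, PER2, CRY1, CRY2, the REV-ERB genes NR1D1 and NR1D2, BHLHE40, BHLHE41, and the PAR bZIP genes DBP and TEF. They were chosen by name from the 19414 genes of the deposited tables. Total RNA was sequenced from U2OS, an established human osteosarcoma line that is widely used as a clock model. The 8 libraries make up 4 genotypes of 2 libraries each, WT, MYC O/E (here MYC, for MYC overexpression), Zab, and Zab + MYC O/E (here Zab+MYC, with both). The design text writes Zab as Zαβ, a name generally given to the Zα and Zβ domains of ADAR1. The labels give no promoter, vector, dose or clone for either factor. They also give no synchronisation of the cells and no time of harvest, and with 1 time point a changed level and a changed phase of the clock cannot be told apart.

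In the clock, the activators CLOCK and ARNTL (BMAL1) bind E-boxes, short DNA elements with the core CACGTG, and switch on PER and CRY genes, whose proteins then hold the activators back. The same pair drives NR1D1 and NR1D2, which repress ARNTL, and BHLHE40, BHLHE41, DBP and TEF, of which the BHLHE factors compete for E-boxes and DBP and TEF drive a further wave of output genes. MYC with its partner MAX also binds CACGTG, and published work in U2OS cells with inducible MYC has described higher NR1D1 and lower ARNTL.

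By limma, 7 of the 9 tested genes were lower in Zab than in WT (adjusted p below 0.05). Of all 9673 tested genes, 24.4% were called in that comparison and 11.3% were called lower. The promoters of all 10 genes were searched for E-boxes, whatever their result in Zab. RefSeq promoters (GRCh38.p14) were at hand for 10 of 10 genes. The 250 bases before the start were searched on both strands for CACGTG and for CACGTT, a variant E-box, and where a gene had 2 listed windows the first was used. That applied to TEF, CRY2 and NR1D2, whose windows were not matched to the transcripts counted and may belong to another start. CACGTG was found in 4 of 10, against 7.88% of 15092 promoters of the same length, and CACGTT in 3 of 10, against 4.69%. A match is a description of the letters and not evidence of binding. The 6 windows below run from 5′ to 3′ towards the gene, with the elements found in capitals, CACGTT also as its reverse complement. The window of CRY1, a gene not tested with limma, also held CACGTT and is not among them.
BHLHE40, chr3:4979187-4979436, plus strand: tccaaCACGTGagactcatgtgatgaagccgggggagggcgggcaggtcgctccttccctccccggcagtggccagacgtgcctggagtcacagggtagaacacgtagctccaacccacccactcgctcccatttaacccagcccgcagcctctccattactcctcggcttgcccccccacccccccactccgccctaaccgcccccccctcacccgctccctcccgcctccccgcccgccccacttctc
BHLHE41, chr12:26125038-26125287, minus strand: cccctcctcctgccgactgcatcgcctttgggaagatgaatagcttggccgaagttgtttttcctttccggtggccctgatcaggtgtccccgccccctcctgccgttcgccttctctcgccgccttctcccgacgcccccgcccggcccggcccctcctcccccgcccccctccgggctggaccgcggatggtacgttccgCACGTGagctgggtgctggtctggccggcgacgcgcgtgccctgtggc
TEF, chr22:41367205-41367454, plus strand: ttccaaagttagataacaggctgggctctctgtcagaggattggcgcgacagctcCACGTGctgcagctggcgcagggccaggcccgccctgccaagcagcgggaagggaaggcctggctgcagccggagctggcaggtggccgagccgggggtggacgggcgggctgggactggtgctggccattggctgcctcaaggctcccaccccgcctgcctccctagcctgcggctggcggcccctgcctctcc
PER1, chr17:8152405-8152654, minus strand: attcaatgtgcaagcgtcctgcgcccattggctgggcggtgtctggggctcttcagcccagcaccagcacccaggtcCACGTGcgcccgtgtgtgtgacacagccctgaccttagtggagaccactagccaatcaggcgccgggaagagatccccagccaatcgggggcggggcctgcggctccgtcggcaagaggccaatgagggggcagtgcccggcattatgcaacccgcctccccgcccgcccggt
PER2, chr2:238288611-238288860, minus strand: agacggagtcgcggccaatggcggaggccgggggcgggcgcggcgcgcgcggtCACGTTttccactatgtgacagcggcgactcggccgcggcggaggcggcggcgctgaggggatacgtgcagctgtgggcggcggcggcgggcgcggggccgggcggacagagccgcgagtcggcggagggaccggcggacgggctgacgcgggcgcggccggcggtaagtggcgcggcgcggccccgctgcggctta
NR1D1, chr17:40100590-40100839, minus strand: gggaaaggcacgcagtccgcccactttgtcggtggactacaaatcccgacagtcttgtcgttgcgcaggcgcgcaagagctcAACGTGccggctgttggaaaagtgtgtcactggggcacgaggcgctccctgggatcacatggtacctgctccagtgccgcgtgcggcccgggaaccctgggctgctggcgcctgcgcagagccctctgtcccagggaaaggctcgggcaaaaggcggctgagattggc

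The core CACGTG began 245 bases before the start in BHLHE40, 48 in BHLHE41, 195 in TEF and 173 in PER1. CACGTT began 197 bases before the start in PER2, 168 in NR1D1 and 89 in CRY1. Neither was present in these windows of DBP, CRY2 and NR1D2. DBP and NR1D2 were among the genes lower in Zab, whereas PER1, with CACGTG, was not called there. A link between the elements and the falls in Zab was not tested. The D-box bound by DBP and TEF, searched as TTATGTAA and TTACGTAA, was in 0 of the 10 windows and in 0.709% of all. AGGTCA, the core element bound by REV-ERB and ROR proteins, was in PER1 and CRY2, against 10.03% of all. No match of one motif overlapped a match of another in the 10 windows.

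Tags in exons numbered 686991.5 to 1326166.5 per library, so the low genes rest on few tags. The share of all tags that lay in exons averaged 70.9% in WT, 76.0% with MYC, 60.8% with Zab and 69.1% with both. It differed by genotype, and its part in the results below was not tested. Levels are CPM, with library sizes scaled by TMM. The MYC gene spanned 72.6 to 94.8 CPM across WT libraries, 1237 to 1290 with MYC, 194 to 230 with Zab and 705 to 707 with both (range of 2 libraries each). ADAR was at 6003 and 6198 CPM with Zab, 1068 and 1019 with both, 247 and 230 with MYC and 264 and 270 in WT. Introduced and endogenous transcripts of either gene are not separated. Of 8 mesenchymal markers 7 had tags in every group, while TWIST1 was at 0, and their sum was 10839 to 11048 CPM in WT, 5490 to 5659 with MYC, 9037 to 9392 with Zab and 7922 to 8008 with both. VIM made up most of that sum, and other markers were further apart between WT and MYC, with means of 1140 and 116 CPM for COL1A1, 389 and 43.7 for FN1, and 104 and 4.75 for COL5A1. The part of this shift in the results below was not tested. The summed levels of 4 epithelial, 3 blood and 3 endothelial markers each stayed at or below 6.31 CPM. The 2 libraries of each group differed by no more than counting noise (chi-square per degree of freedom 0.992 to 1.02, p = 0.0793 to 0.711). The labels do not say whether they are separate cultures. The p-values therefore rest on a spread between libraries that may be technical only.

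Each gene was tested with limma over 9673 genes, and a Benjamini-Hochberg adjusted p below 0.05 counted as a call. The test used log2(CPM + 2), a scale on which the fold of a scarce gene comes out too small. Of the 10 genes 9 passed the filter on low values, and CRY1 did not. In bulk RNA, fewer expressing cells and less RNA per cell cannot be told apart.

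**Figure D1:**
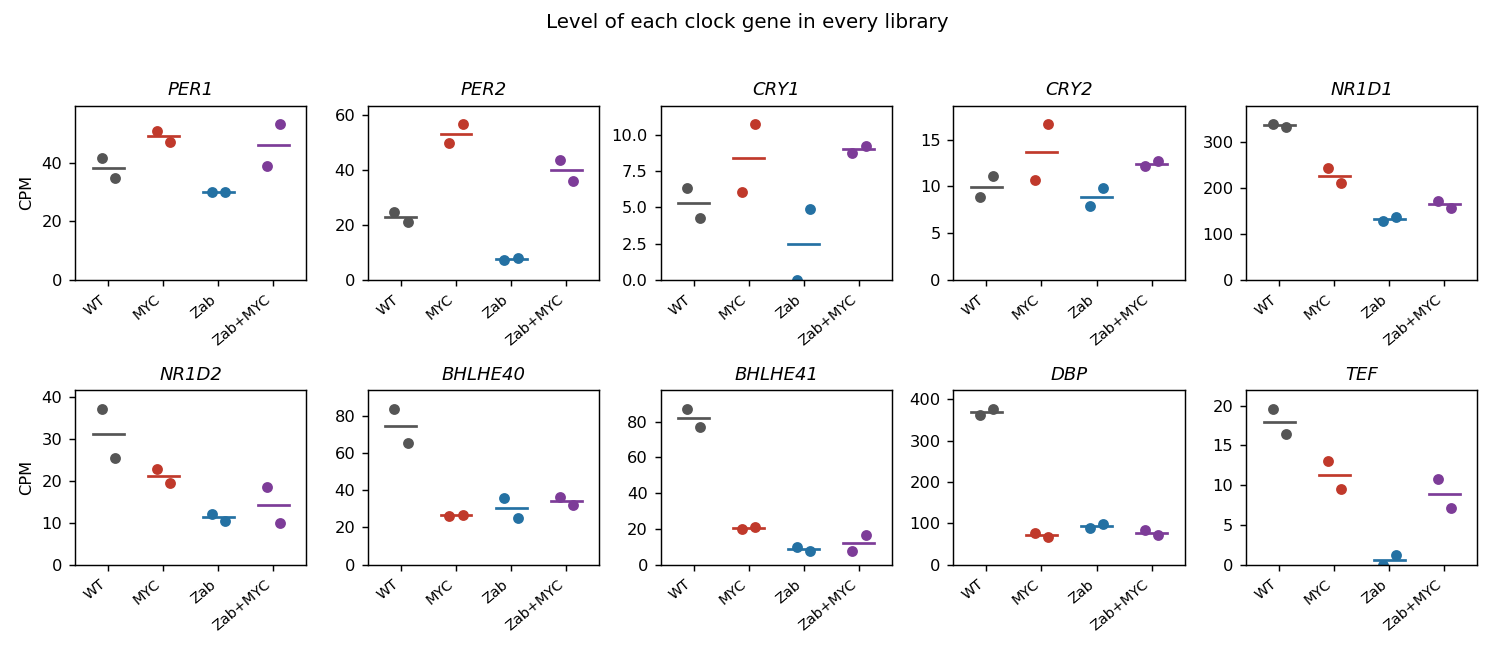
CPM of each of the 10 genes (vertical axis, from 0, own scale per panel) in the 2 libraries of the 4 genotypes. Points are libraries and bars are means. DBP, BHLHE40 and BHLHE41 are high in WT alone, while PER2 is highest in MYC and lowest in Zab.

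The PER genes encode the repressors that set the pace of the clock, and PER2 moved in opposite directions with MYC and with Zab. PER2 (chromosome 2 from 239152685 to 239197251, hg19) read 24.6 and 21.2 CPM in WT libraries, 49.97 and 56.7 with MYC, 7.17 and 7.96 with Zab and 43.8 and 36.1 with both. No 2 of these 4 ranges overlapped. PER2 rose 2.22-fold in MYC against WT (log2 1.15 ± 0.28 SE, limma adjusted p = 0.00033). It fell 2.60-fold in Zab relative to WT (log2 -1.38 ± 0.28, limma adjusted p = 8.8e-05). In cells with Zab, overexpressed MYC went with a 4.37-fold higher level (log2 2.13 ± 0.28, limma adjusted p = 5e-09). Both Zab+MYC libraries lay below both MYC libraries, and that difference, log2 -0.40 with a 95% interval from -0.96 to 0.16, was not called.

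PER1, the paralog of PER2 and also a gene of the early serum response, showed the same order of group means with smaller differences. PER1 (chromosome 17 from 8043790 to 8055722) read 41.6 and 35.0 CPM in WT libraries, 50.9 and 47.2 with MYC, 30.1 and 30.0 with Zab and 38.9 and 53.2 with both. The PER1 ranges of WT, MYC and Zab did not overlap, but no comparison was called. On the deposited scale Zab against WT was called for PER1 (log2 -0.82, limma adjusted p = 0.0019). Zab+MYC against Zab, at log2 0.57 ± 0.23 (limma adjusted p = 0.059), was called on the deposited scale (adjusted p = 0.014) and without Zab+MYC replicate 1 (adjusted p = 0.037).

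CRY1 and CRY2 encode the cryptochromes that bind and silence CLOCK and ARNTL, and both were scarce. CRY2 (chromosome 11, 45869026 to 45904795 for 1 of the 2 transcripts kept) read 8.83 and 11.1 CPM in WT libraries, 10.7 and 16.7 with MYC, 7.89 and 9.79 with Zab and 12.2 and 12.8 with both. The CRY2 ranges of WT overlapped those of both MYC and Zab, and limma called no comparison (adjusted p = 0.42 to 0.96). CRY1 (chromosome 12 from 107385143 to 107487327) had 48.5 tags in all. It read 6.31 and 4.24 CPM in WT libraries, 6.07 and 10.7 with MYC, 0 and 4.90 with Zab and 8.76 and 9.21 with both, and the 0 in Zab replicate 1 allows up to 4.30 CPM (3 tags, counting error only). The Zab+MYC libraries lay above both Zab and both WT libraries for CRY1, without a test.

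NR1D1, the REV-ERBα repressor of ARNTL, was highest in WT. NR1D1 (chromosome 17 from 38249046 to 38256842) read 338 and 332.7 CPM in WT libraries, 242 and 210 with MYC, 128 and 136 with Zab and 171 and 156 with both. The 4 ranges did not overlap. Relative to WT it fell 2.52-fold in Zab (log2 -1.33 ± 0.11, limma adjusted p = 6.6e-17) and 1.48-fold in MYC (log2 -0.57 ± 0.11, limma adjusted p = 7.3e-06). Zab+MYC lay 1.38-fold below MYC (limma adjusted p = 0.0011), a call that ended without MYC replicate 1 (adjusted p = 0.054). Zab+MYC lay 1.23-fold above Zab (limma adjusted p = 0.029), and this call ended with library totals, edgeR and DESeq2 (adjusted p = 0.055, 0.067 and 0.32), with the 4 libraries of these groups alone (adjusted p = 0.085), and without Zab replicate 1 or Zab+MYC replicate 1 (adjusted p = 0.15 and 0.20).

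The 3′ end of NR1D1 overlaps THRA, a thyroid hormone receptor gene on the other strand, by 1075 bases, and the sources used here do not say whether the counting was strand-specific. THRA read 223 and 193 CPM in WT libraries, 93.4 and 89.6 with MYC, 77.5 and 76.5 with Zab and 83.2 and 70.9 with both, so it was lower in the 3 other groups too. NR1D1 had more tags than THRA in each of the 8 libraries. As a bound, the THRA tags of each library were taken away from NR1D1, an alternative chosen after seeing the data. That left 115 and 140 CPM in WT libraries, 149 and 120 with MYC, 50.2 and 59.97 with Zab and 88.1 and 85.1 with both. Under this bound the MYC against WT difference turned to log2 0.08 (limma adjusted p = 0.69), while Zab against WT kept log2 -1.18 (limma adjusted p = 5.5e-09) and Zab+MYC against Zab rose to 0.64 (limma adjusted p = 0.0011). The direction of NR1D1 in MYC against WT therefore depends on how many THRA tags it shares, which was not tested.

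NR1D2, REV-ERBβ, which acts alongside NR1D1, followed the same order of group means on far fewer tags. NR1D2 (chromosome 3, 23987612 to 24022109 for the shorter of 2 transcripts kept) read 37.2 and 25.4 CPM in WT libraries, 22.9 and 19.4 with MYC, 12.2 and 10.4 with Zab and 18.5 and 9.92 with both. It fell 2.47-fold in Zab relative to WT (log2 -1.31 ± 0.33, limma adjusted p = 0.0017). That call ended with DESeq2 (adjusted p = 0.056) and without WT replicate 1 (log2 -1.04, adjusted p = 0.080), the one library counted on the longer transcript, of 5216 instead of 5041 bases. The other 3 comparisons were not called.

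BHLHE40 and BHLHE41, the repressors DEC1 and DEC2, were low in each group that carried MYC, Zab or both. BHLHE40 (chromosome 3 from 5021122 to 5027008) read 83.9 and 65.7 CPM in WT libraries, 26.2 and 27.0 with MYC, 35.9 and 25.1 with Zab and 36.5 and 31.9 with both. The lowest WT library lay above the highest of the other 6. It fell 2.67-fold in MYC against WT (log2 -1.42 ± 0.24, limma adjusted p = 5.2e-07) and 2.38-fold in Zab relative to WT (log2 -1.25 ± 0.24, limma adjusted p = 2.8e-05). Zab+MYC was not called against MYC (log2 0.34, 95% interval -0.14 to 0.82) or against Zab (log2 0.17, -0.30 to 0.65).

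BHLHE41 (chromosome 12 from 26272963 to 26277970) had, beside TEF, the largest fitted change of the 9 genes in Zab against WT. It read 87.1 and 76.8 CPM in WT libraries, 20.1 and 21.0 with MYC, 10.04 and 7.34 with Zab and 7.30 and 16.3 with both. The Zab and Zab+MYC ranges overlapped, and both lay below MYC, where Zab and MYC were not tested against each other. It fell 3.72-fold in MYC against WT (log2 -1.89 ± 0.32, limma adjusted p = 4e-07) and 7.90-fold in Zab relative to WT (log2 -2.98 ± 0.32, limma adjusted p = 3.3e-12). Zab+MYC against MYC stood at log2 -0.79 ± 0.32 (limma adjusted p = 0.067), and was called on the deposited scale (adjusted p = 0.0045) and without Zab+MYC replicate 2 (log2 -1.31, adjusted p = 0.013) or either Zab library (adjusted p = 0.030 and 0.039).

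BHLHE41 and TEF had nearly equal spreads of group means, 2.98 and 2.97 on the log2(CPM + 2) scale, the widest of the 9 tested. With a pseudocount of 1 CPM the fall in Zab against WT was larger for TEF, at log2 -3.67, than for BHLHE41, at -3.11. Among all tested genes, the 3 with a profile most like BHLHE41 over the 8 libraries were PARM1 (Pearson r = 0.984), RAB31 (r = 0.973) and GFPT2 (r = 0.968), and 8 genes exceeded 0.95. PARM1 fell from a mean of 24.9 CPM in WT to 7.14 with MYC, 3.38 with Zab and 3.34 with both. These values describe 8 libraries in 4 pairs that share their group.

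DBP, the D-site binding factor that drives clock output genes, had the largest number of tags in WT among the 10 and the steepest fall with MYC. DBP (chromosome 19 from 49133287 to 49140636) read 362 and 377 CPM in WT libraries, 75.7 and 67.4 with MYC, 87.5 and 98.5 with Zab and 82.7 and 71.6 with both. Every library with MYC, Zab or both lay below 99 CPM. It fell 5.06-fold in MYC against WT (log2 -2.34 ± 0.14, limma adjusted p = 1.1e-24) and 3.91-fold in Zab relative to WT (log2 -1.97 ± 0.14, limma adjusted p = 7.1e-20). Neither comparison of Zab+MYC was called, with 95% intervals of log2 -0.17 to 0.38 against MYC and -0.54 to 0.01 against Zab. DBP overlaps SPHK2, on the other strand, by up to 377 bases, but SPHK2 had 8 to 17 tags per library against 50.5 to 355.5 for DBP.

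TEF, the thyrotroph embryonic factor, which binds the same D-box as DBP, was nearly absent in Zab. TEF (chromosome 22, 41777946 to 41795330 for the shorter of 2 transcripts kept) read 19.6 and 16.4 CPM in WT libraries, 13.1 and 9.52 with MYC, 0 and 1.22 with Zab and 10.7 and 7.09 with both. The 2 Zab libraries held 1 tag between them, against 31 in WT and 16 in Zab+MYC. WT was thus 27.0 times Zab (95% counting interval 4.51 to 1102) and Zab+MYC 13.98 times Zab (2.17 to 586). These intervals cover counting error only, since no molecular identifiers mark reads copied from 1 molecule. limma called both Zab against WT and Zab+MYC against Zab (adjusted p = 8.8e-08 and 0.00013), whereas MYC against WT was not called (log2 -0.60, 95% interval -1.47 to 0.27).

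Counted over the 10 genes, MYC against WT called 5 of 9 tested, with PER2 higher and NR1D1, BHLHE40, BHLHE41 and DBP lower. NR1D1 was not called there with THRA tags taken away (log2 0.08, limma adjusted p = 0.69). In that comparison 58.2% of all 9673 tested genes were called, 27.8% higher and 30.4% lower, so the number called among these genes is near the background. Their median was log2 -0.57, the value of NR1D1 before THRA tags were taken away, against -0.04 over all tested genes. Zab against WT called 7 of 9, each lower, where 24.4% of all genes were called and 11.3% were called lower. PER1 and CRY2 were the 2 not called, and the median was -1.33 against 0.00 over all genes. The deposited scale shifted all genes by a median of log2 -0.51 in this comparison, and the 7 genes were lower on that scale as well. The comparisons with WT share the WT libraries, so their falls are not independent of each other.

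Within MYC-overexpressing cells, Zab+MYC against MYC called 1 of 9, NR1D1, lower, where 20% of all genes were called and 8.14% were lower. Within Zab cells, Zab+MYC against Zab called 3 of 9, namely PER2, TEF and NR1D1, each higher, where 26.8% of all genes were called and 14.3% were higher.

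**Figure D2:**
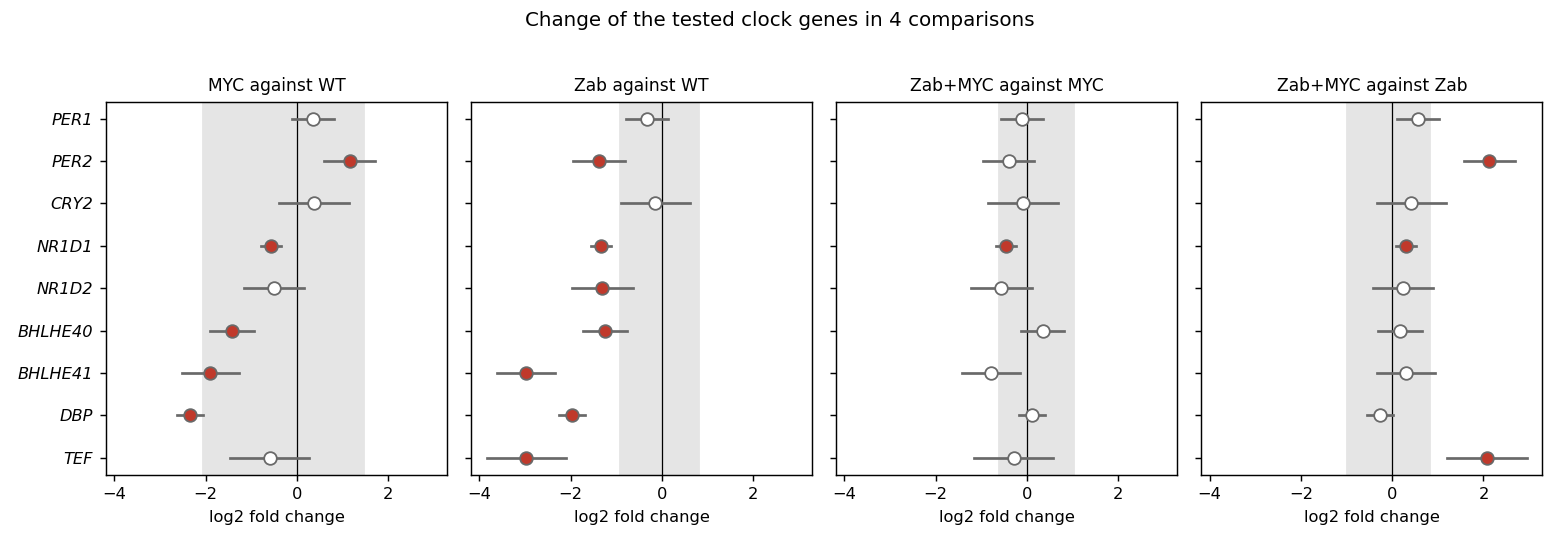
log2 fold change of the 9 tested genes in 4 comparisons, with 95% intervals. Red points were called by limma, open points were not, and the grey band spans the middle 90% of all tested genes. In Zab against WT the 7 called genes lie below the band, from log2 -2.98 to -1.25.

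Whether the MYC difference itself changed with Zab was tested as an interaction, the log2 difference of Zab+MYC and Zab less that of MYC and WT. It was called for 5 of 9 genes, each positive, where 27.9% of all genes were called, 14.6% positive and 13.3% negative. The interaction includes the WT libraries, so a gene high in WT alone gives a positive value. BHLHE40, BHLHE41 and DBP were high in WT alone, so their interactions are not independent of their falls against WT. BHLHE40 had an interaction of log2 1.59 ± 0.34 (limma adjusted p = 0.00016) and BHLHE41 one of 2.19 ± 0.45 (limma adjusted p = 8.3e-05). Both were lower with MYC in cells without Zab and were not called with MYC in cells with Zab, where their levels without added MYC were 25.1 to 35.9 CPM for BHLHE40 and 7.34 to 10.04 CPM for BHLHE41.

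DBP had the same pattern, with an interaction of log2 2.07 ± 0.20 (limma adjusted p = 3.8e-14). NR1D1 had an interaction of 0.87 ± 0.15 (limma adjusted p = 5.8e-06), or 0.56 (limma adjusted p = 0.049) with THRA tags taken away. Its MYC difference was log2 -0.57 without Zab and 0.30 with Zab, but 0.08 and 0.64 with THRA tags taken away, so the opposite signs did not hold under that bound. TEF, not called with MYC alone, was higher with MYC in Zab cells, with an interaction of 2.68 ± 0.62 (limma adjusted p = 0.00046) that rests on 1 tag in Zab. The fitted TEF interaction ran from 1.81 with a pseudocount of 5 CPM to 3.34 with 1 CPM. The count of 5 genes held without each of the 8 libraries in turn. PER2 rose with MYC in both settings, and its interaction of 0.98 ± 0.40 was not called (limma adjusted p = 0.058), but was with library totals, a pseudocount of 1 CPM, edgeR or the deposited scale (adjusted p = 0.033 to 0.048). PER1, CRY2 and NR1D2 had no called interaction, with 95% intervals from -0.43 to 0.88, -1.03 to 1.13 and -0.19 to 1.68.

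**Figure D3:**
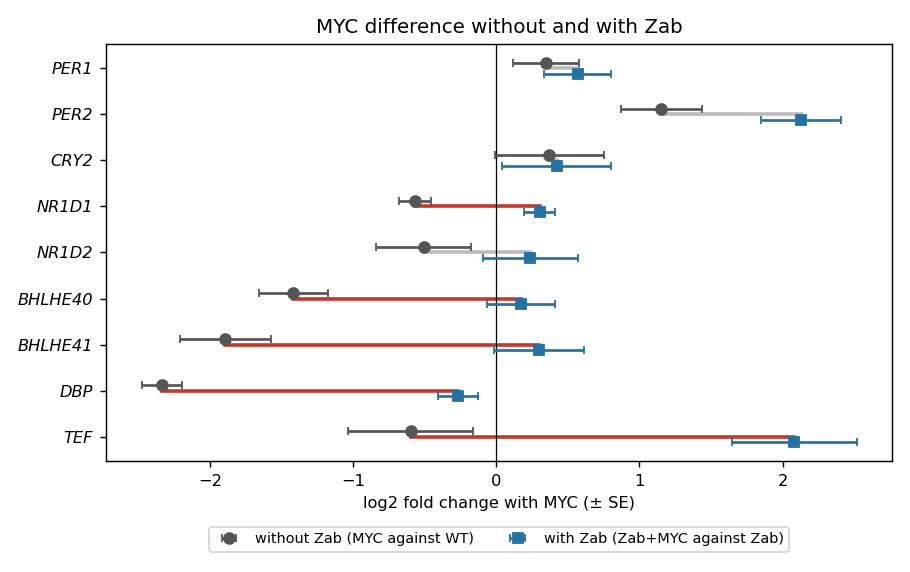
log2 fold change with MYC (± SE) for the 9 tested genes, in cells without Zab (grey circles) and with Zab (blue squares). Red connecting lines mark the 5 genes with a called interaction. DBP moves from log2 -2.34 without Zab to -0.26 with Zab, and PER2 is above 0 in both.

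Levels of different genes were compared as CPM per kb of the transcript counted in each library. In WT the order was DBP (171 ± 4.75, SD, n = 2) and NR1D1 (128 ± 1.31), then BHLHE40 (23.8 ± 4.10) and BHLHE41 (21.9 ± 1.94), PER1 (8.27 ± 1.02), NR1D2 (6.09 ± 1.48), TEF (4.109 ± 0.51), PER2 (3.61 ± 0.38), CRY2 (2.45 ± 0.42) and CRY1 (1.78 ± 0.49). BHLHE40 and BHLHE41 overlapped, as did TEF and PER2, and the other neighbours did not. In the 3 other groups NR1D1 stood first, at 86.5 CPM per kb with MYC, 50.5 with Zab and 62.6 with both, and DBP second, at 33.1, 43.0 and 35.7. With THRA tags taken away, NR1D1 was at 51.5 ± 7.79 CPM per kb with MYC, 21.1 ± 2.64 with Zab and 33.1 ± 0.82 with both (SD, n = 2). Its place above DBP then held in MYC, turned in Zab, and overlapped DBP in Zab+MYC. PER2 moved from rank 8 in WT to rank 5 in MYC, at 8.42 CPM per kb, where it overlapped BHLHE40 at 8.45. TEF was last in MYC, in Zab and with both, and in each its range overlapped that of the gene ranked just above.

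**Figure D4:**
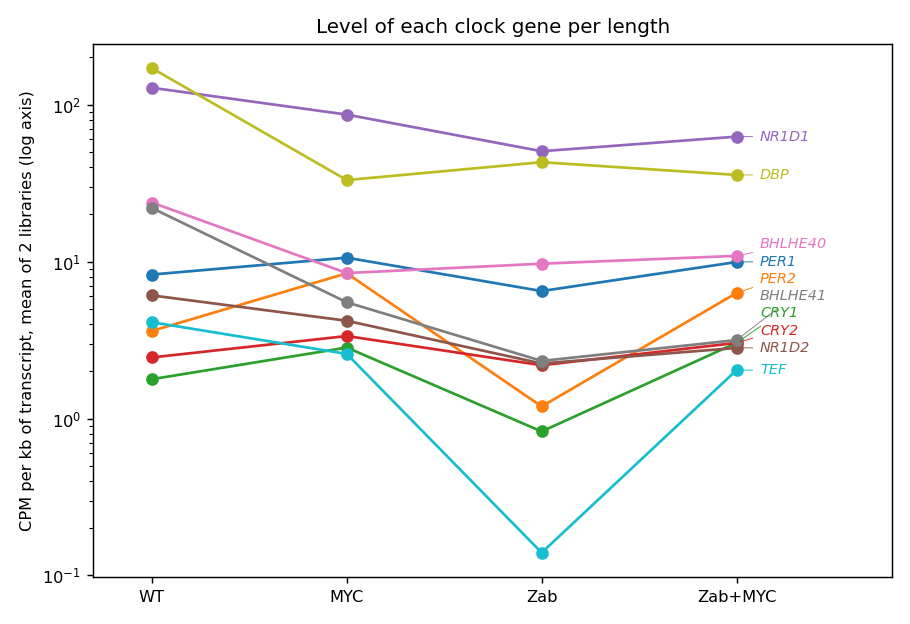
Mean CPM per kb of transcript (log axis) of the 10 genes in the 4 genotypes, each the mean of 2 libraries. Lines join the group means of a gene and imply no order of genotypes. NR1D1 and DBP stay above the rest, and TEF dips to 0.14 in Zab.

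ARNTL, the BMAL1 partner of CLOCK and the target of REV-ERB repression, read 15.1 and 20.7 CPM in WT libraries, 1.87 and 0 with MYC, 27.97 and 19.6 with Zab and 7.30 and 7.80 with both. It was near absent in MYC, with 2 tags in both libraries together against 31.5 in WT, a ratio of 21.5 (95% counting interval 5.48 to 185, limma adjusted p = 1.9e-08). Zab+MYC was higher than MYC (ratio 8.74, counting interval 1.98 to 79.8, limma adjusted p = 0.00096), a call that ended without MYC replicate 2 (adjusted p = 0.070). It was also 2.66-fold lower than Zab (limma adjusted p = 0.0072), a call that ended without Zab replicate 1 (adjusted p = 0.13) and without Zab+MYC replicate 1 or 2 (adjusted p = 0.060 and 0.051).

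NPAS2, which can stand in for CLOCK, read 79.5 and 72.6 CPM in WT libraries, 39.7 and 36.9 with MYC, 126 and 99.8 with Zab and 47.7 and 37.6 with both. Both comparisons with MYC went down, by 1.94-fold without Zab (limma adjusted p = 1.5e-05) and 2.57-fold with it (limma adjusted p = 2.5e-08). NPAS2 was also called higher in Zab against WT (log2 0.55). That call ended on the deposited scale (log2 0.01) and with DESeq2 (adjusted p = 0.18). Without WT replicate 1, WT replicate 2 or Zab replicate 1 the difference was log2 0.62, 0.49 and 0.38. CLOCK itself was called in no comparison (limma adjusted p = 0.066 to 0.72). ARNTL2, a BMAL1 paralog, fell 2.07-fold in MYC against WT (limma adjusted p = 0.011), but the call ended with DESeq2 (adjusted p = 0.13) and without WT replicate 2 or MYC replicate 2 (adjusted p = 0.091 and 0.22). ARNTL, NPAS2 and ARNTL2 were the 3 of 5 tested activators and RORs that fell in MYC against WT, a comparison in which 58.2% of all genes were called and 30.4% were lower.

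Among further repressors and outputs, NFIL3, which opposes the PAR bZIP factors at D-boxes, fell 2.36-fold in MYC against WT (limma adjusted p = 0.00022). Its MYC libraries were far apart, at 8.87 and 20.6 CPM against 39.1 and 31.3 in WT, and the call ended without MYC replicate 1 (log2 -0.67, adjusted p = 0.088). PER3, the remaining PER paralog, read 27.1 and 45.6 CPM in WT libraries, 33.6 and 34.1 with MYC, 11.48 and 14.7 with Zab and 26.3 and 27.6 with both. Like PER2 it was lowest in Zab, 2.48-fold below WT (limma adjusted p = 0.00023), and MYC against WT was not called (log2 -0.05, 95% interval -0.62 to 0.52, limma adjusted p = 0.89). Zab+MYC exceeded Zab by 1.93-fold for PER3 (limma adjusted p = 0.0085), a call lost with DESeq2 (adjusted p = 0.20) and without Zab replicate 1 or Zab+MYC replicate 2 (adjusted p = 0.068 and 0.065).

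**Figure D5:**
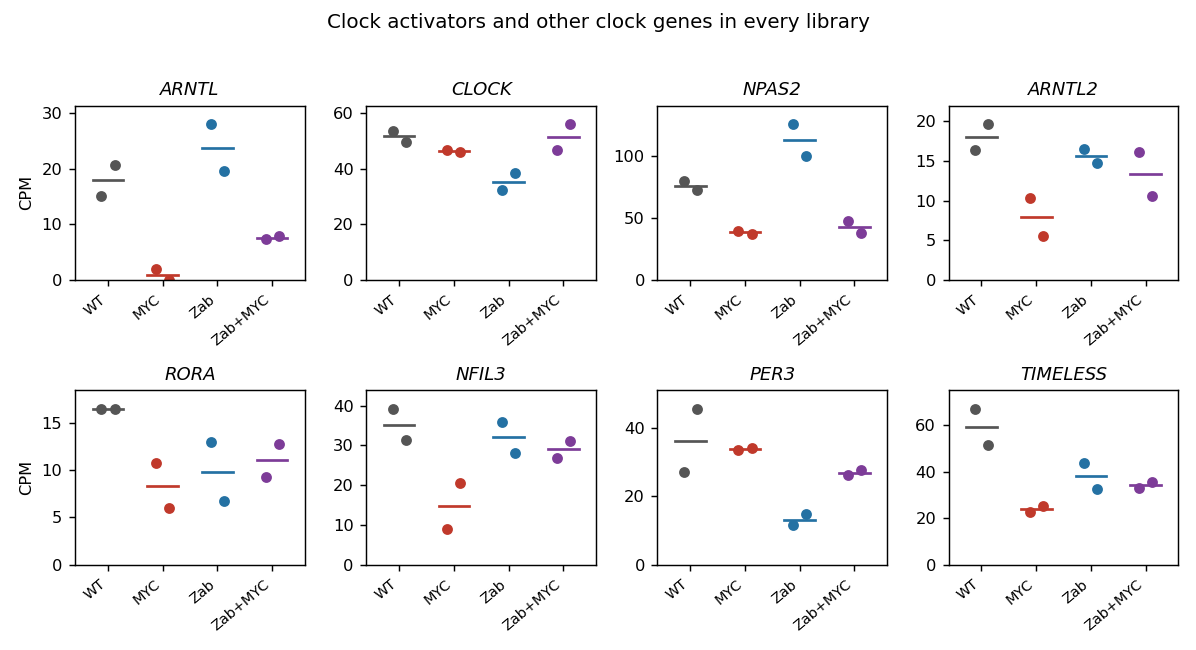
CPM (vertical axis, from 0, own scale per panel) of 8 further clock genes in the 2 libraries of each genotype. Points are libraries and bars are means. ARNTL is at 0 and 1.87 CPM in MYC, and PER3 is lowest in Zab.

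Of 33 other clock genes, 27 were tested. In MYC against WT 7 rose and 7 fell, where 58.2% of all genes were called. The enzymes and cofactors, 17 of the 27 tested, held 6 of the 7 that rose. One was CSNK2A1, a catalytic subunit of the kinase CK2, which rose 2.305-fold (limma adjusted p = 4.3e-10). TIMELESS, a replication fork protein with a debated clock role in mammals, fell 2.35-fold in MYC against WT (limma adjusted p = 1.1e-05).

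In Zab against WT 5 of the 27 rose and 3 fell, where 24.4% of all genes were called, but on the deposited scale 0 rose and 17 fell, and DESeq2 called 1 higher and 2 lower. Zab+MYC against MYC had 4 higher and 1 lower, where 20% of all genes were called. There were 1 and 9 on the deposited scale, with 0 called with DESeq2 (3 at an unadjusted p below 0.05, and 11 with no adjusted p) and 7 with edgeR. Zab+MYC against Zab had 5 higher and 4 lower, where 26.8% of all genes were called, or 10 and 3 on the deposited scale. The interaction was called for 6 of the 27, where 27.9% of all genes were called, with 3 in each direction, or 9 higher and 0 lower on the deposited scale. That scale shifted all genes by a median of log2 -0.51, -0.31, 0.15 and 0.20 in these 4 comparisons, in the order given. The shares of all genes belong to the main fit. None is given for the deposited scale, DESeq2 or edgeR, so those counts are not read as results about the clock genes. ZBTB17, the MYC partner MIZ1 through which MYC can repress clock activators, was called in no comparison (limma adjusted p = 0.21 to 0.69).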

How the data were processed

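The authors deposited 1 table per library with an exon signal for 19414 genes. The submitters' processing notes name HOMER 4.11.1, STAR and Trim Galore 0.6.6 and the builds dm6 and hg19. Per the file headers, HOMER's analyzeRepeats summed raw exon tags over hg19 coding RefSeq models, with 1 transcript left for each symbol, and the library folder was named for a spike-in. In each library 100% of the deposited signal values were whole multiples of 1 step (tolerance 0.1 step). A tag was taken as 2 steps, an assumption, and tags need not be whole. The sources used here do not say how the factor of each library, 0.315 to 0.537 deposited units per tag, was set.

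Recovered tags were filtered with filterByExpr, scaled by TMM and tested with limma 3.58.1 (trend, all 8 libraries, 4 residual degrees of freedom) on log2(CPM + 2). edgeR 4.0.16 (quasi-likelihood, rounded tags) called 5919 genes in MYC against WT, and limma 5633. DESeq2 1.42.0 in R 4.3.3 was a further alternative. The 10 genes, the other clock genes and the tests were chosen with earlier results of these data known. Named were the 10 genes whatever their result, other clock genes with a call, CLOCK and ZBTB17 as context, THRA and SPHK2 for their overlap, and the 3 genes most like BHLHE41. Promoters came from RefSeq, GRCh38.p14, and their coordinates were not mixed with hg19. Replicate numbers were not used to pair the libraries in the main fit. One of the other clock genes with a call is not reported here by name.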

Additional observations from a re-analysis of the deposited data

Results flagged for a closer look

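The MYC difference changed with Zab, by the interaction test in limma, for 5 of the 9 tested genes. Of all 9673 tested genes, 27.9% were called in that test, 14.6% positive and 13.3% negative. The log2 interaction was 1.59 for BHLHE40, 2.19 for BHLHE41, 2.07 for DBP, 0.87 for NR1D1 (0.56 with THRA tags taken away) and 2.68 for TEF. Adjusted p ran from 3.8e-14 for DBP to 0.00046 for TEF. BHLHE40, BHLHE41 and DBP were high in WT alone, and the test includes those WT libraries. Their interactions are therefore not independent of their falls against WT. The levels of MYC and ADAR moved as well. The MYC gene was at 72.6 to 94.8 CPM in WT, 194 to 230 in Zab, 1237 to 1290 in MYC and 705 to 707 in Zab+MYC. ADAR was at 6003 and 6198 CPM in Zab but 1068 and 1019 in Zab+MYC. The part of either in the interactions was not tested. The outlier test could not be used with 2 libraries per group.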

How the results depend on the processing

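Over the alternatives, 813 values of single genes kept their side of the threshold, 9 lost the call, 13 gained one and 1 reversed. A change of sign without a call in either fit was counted among the 813. DBP in Zab+MYC against MYC was such a value, at log2 0.10 and, on the deposited scale, -0.22. The reversal, of a value that had been called, was NR1D1 in MYC against WT with THRA tags taken away, log2 0.077. Replicate number as a block left the side of the threshold the same for the 45 values fitted: with the block, 5 of the 10 genes were called for MYC against WT, 7 for Zab against WT, 1 and 3 for Zab+MYC against MYC and against Zab, and 5 for the interaction. Same-numbered libraries did not deviate together (correlations -0.023 to 0.014). The libraries of a group differed by no more than counting noise, so this check cannot tell whether the numbers mark pairs.

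Of the 10 genes, Zab+MYC against Zab called 1 with DESeq2 and 1 with only the groups compared, where TEF did not pass the filter, instead of 3, and Zab+MYC against MYC called 4 on the deposited scale instead of 1. Without single libraries the latter ran from 0 (without MYC replicate 1) to 2. For the other clock genes in Zab against WT, the 8 called became 5 with no filter, 3 with DESeq2 and 17 on the deposited scale. In Zab+MYC against MYC, 5 became 2, 0 and 10 in the same order. With DESeq2, 9 in Zab+MYC against Zab became 2, and 6 in the interaction became 1. Without single libraries the other clock genes called ran from 9 (without MYC replicate 2) to 16 for MYC against WT, 4 (without WT replicate 1) to 8 for Zab against WT, 2 (without Zab+MYC replicate 2) to 6 for the interaction and, for Zab+MYC, 1 (without either MYC library or Zab+MYC replicate 2) to 6 against MYC and 3 (without Zab+MYC replicate 1) to 9 against Zab. For the 10 genes these ranges were 5 to 5 for MYC against WT, 6 to 7 for Zab against WT, 2 to 3 for Zab+MYC against Zab and 5 to 5 for the interaction. DESeq2 gave no adjusted p for TEF in each comparison but MYC against WT, nor for some values of others among the 10 genes. It left 33 values of the 10 genes the same and 2 weaker, where the replicate block gave 45 values. It also gave none for 4 to 11 of the 27 other clock genes in the comparisons other than MYC against WT, so its counts cover fewer genes. The cause of the other changes was not tested. Median shifts of all genes on the deposited scale were log2 -0.31 in Zab+MYC against MYC, 0.15 in Zab+MYC against Zab and 0.20 in the interaction, and with library totals -0.12 in MYC against WT. Depth limits CRY1, CRY2, TEF and ARNTL, which had few tags per library. It also limits PER2 (5 and 6.5 tags), BHLHE41 (7 and 6) and NR1D2 (8.5 and 8.5) in the Zab libraries.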
